A study of Mus musculus with 38 samples.

Results

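The response of hypoxic bone marrow-derived macrophages (BMDM) to panobinostat was measured by polyA-selected RNA sequencing. The comparison rests on 4 of the 38 samples of the series: 2 libraries of BMDM held for 16 h at less than 0.1% O2 with 10 nM panobinostat, and 2 libraries held at the same oxygen for the same time with an equivalent volume of the solvent DMSO. Both pairs were chosen by their labels, not by their values. A further 2 BMDM libraries, kept at 21% O2 with DMSO, gave a reference level and shared the estimate of the spread. The labels give the genotype of all 6 as WT, the source as primary cells and the cell type as bone marrow-derived macrophage. All were grown without tumour cells, and all were fixed with glyoxal before the RNA was extracted. The same drug, dose and oxygen were applied to BV2, an immortalised mouse microglial line, and those 4 hypoxic libraries served for the test of how the 2 cell types differed. The labels do not say whether the numbered libraries came from separate mice. The p-values therefore measure the spread between these libraries, which is not known to be the spread between mice.

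Histone deacetylases (HDACs) remove acetyl groups from lysines of histones and of many other proteins, and at promoters and enhancers they act mostly inside repressor complexes such as those assembled by the factor REST, which keeps neuronal genes silent in other cell types. Panobinostat is a hydroxamate that blocks the zinc-dependent HDACs of several classes, and it is used in the treatment of multiple myeloma. In macrophages, inhibitors of these enzymes are known to change inflammatory genes in both directions, because acetylation also regulates the factors that induce them. Hypoxia stabilises the HIF transcription factors, which switch on glycolytic and angiogenic genes.

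Total counts ranged from 9634700 to 15869246 over the 6 BMDM libraries, so that 3 counts in a library corresponded to between 0.189 and 0.332 CPM, the count scaled to a common library total. Levels below are CPM with TMM scaling, with the library numbered 1 in its group given before the library numbered 2. All 8 defining macrophage markers were detected in each group, which does not tell what share of the cells were macrophages. They summed to 29192 and 17878 CPM in normoxia, and the 15 fibroblast and stroma markers to 33724 and 30348.5 CPM. The fibroblast and stroma sum was the higher of these sums in every BMDM library. Sums over different lists are not shares of cells. The libraries also held stromal transcripts: a list of 28 genes of fibroblasts and smooth muscle took 4.73% and 4.97% of counts in the normoxic libraries, 1.05% and 3.89% in the hypoxic DMSO libraries and 3.12% and 4.36% in the panobinostat libraries, against at most 0.0313% in any BV2 library. Hypoxic DMSO library 1 stood apart by its low stromal share. Lyz2, the lysozyme of macrophages, was lower in number 1 than in number 2 in both hypoxic groups. It stood at 1053 and 7544 CPM with DMSO and 443 and 3105 CPM with panobinostat. In normoxia the order was the opposite, at 20765 and 12993 CPM. Libraries of the same number shared part of their deviation from the group means, as given under the processing of the data. Whole profiles did not all group by number. In log2 CPM, normoxic library 1 correlated at 0.761 with hypoxic DMSO library 1 and at 0.868 with hypoxic DMSO library 2. The Y-linked genes Ddx3y, Uty, Kdm5d and Eif2s3y had at most 1 count in any library numbered 1 and between 0.653 and 5.48 CPM in every library numbered 2, while Xist lay between 234 and 466 CPM in all 6. On the first principal component, which held 54.6% of the variance, hypoxic DMSO library 1 (-60.2) lay beside panobinostat library 1 (-64.7). The hypoxic libraries numbered 2 lay at 3.50 and -19.4, and normoxic libraries 1 and 2 at 64.5 and 76.4.

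Panobinostat shifted the transcriptome of hypoxic BMDM in both directions, with gains mainly among genes that had been low and losses among genes that had been well expressed. Of 14914 genes tested, 8431 (56.5%) had panobinostat and DMSO libraries that did not overlap. With the drug 4298 (28.8%) were higher in this way and 4133 (27.7%) lower. With 2 libraries per group such separation often arises by order alone, so these shares are a description and not a test. The number that passed a test depended on whether the replicate number entered the model. With groups alone, edgeR's quasi-likelihood test with Benjamini-Hochberg adjustment called 0 genes at an adjusted p under 0.05. The smallest adjusted p was 0.0509, shared by 52 genes, and 3868 genes (25.9%) had an unadjusted p under 0.05. DESeq2 without the number called 2024. With the replicate number as a block, edgeR called 2044 genes (13.7%): 1065 rose (7.14%) and 979 fell (6.56%). Of these 2044, 1657 were also called by DESeq2 without the block. Below, "rose" and "fell" mean an adjusted p under 0.05 in the edgeR fit with the block, fold changes are from that fit on the log2 scale with their standard errors (SE), and none of these calls passes in the fit without it. Leaving out any 1 of the 4 hypoxic libraries from the blocked fit left 0 calls, while leaving out normoxic library 1 or 2 left 3796 or 3733. Without hypoxic DMSO library 1, the library that stood apart, the median change of the genes that had risen was 2.01 and of those that had fallen -1.35 in the blocked fit. Because RNA was taken from whole cultures, fewer cells of a type and less RNA per cell cannot be told apart.

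The genes that rose started low. Their median level was 3.34 CPM in hypoxic DMSO libraries and 15.2 CPM with panobinostat, and 336 of the 1065 (31.5%) lay under 1 CPM in hypoxic DMSO. Of all genes tested, 1742 (11.7%) lay under that level. A gene near 0 in hypoxic DMSO is tested only if other libraries hold counts of it, and it can hardly be called as a fall. The low start of the risen genes therefore follows in part from the filter and the test. The 979 genes that fell went from a median of 67.5 CPM to 24.4 CPM, and 1 of them lay under 1 CPM in hypoxic DMSO. Changes of at least 4-fold were found for 595 of the risen and 255 of the fallen genes. The median change was 2.18 among the risen and -1.47 among the fallen genes, against -0.01 over all genes tested. For 1002 of the 1065 risen genes the panobinostat mean lay above the normoxic mean as well, and for 860 of the 979 fallen genes it lay below it. Over all genes tested, the panobinostat mean lay beyond the normoxic mean in the direction of the change for 10301 (69.1%). These levels come from the libraries that made the calls and are a description of the called genes.

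**Figure D1:**
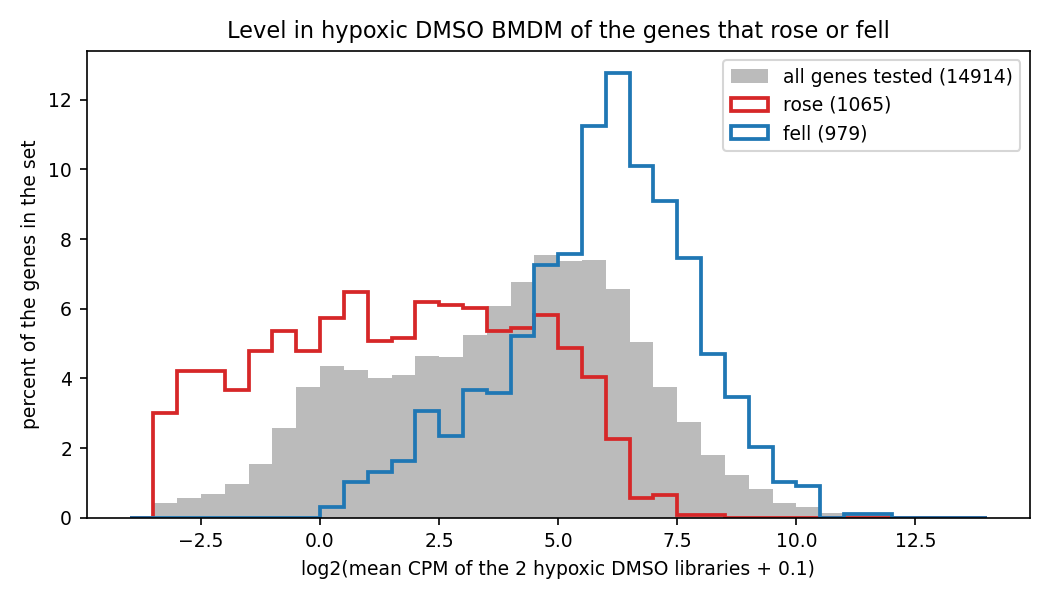
Distribution of the level in hypoxic DMSO BMDM, as log2 of the mean CPM of the 2 libraries plus 0.1, for all 14914 genes tested (grey), the 1065 genes that rose (red) and the 979 that fell (blue) in the replicate-block fit, as percent of each set. The risen genes spread toward the low end of the axis, while the fallen genes gather at the high end.

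Among well-expressed genes, the 12 largest rises included several genes best known from neurons. Syn1, which encodes the synaptic vesicle protein synapsin 1, stood at 2.29 and 6.54 CPM in hypoxic DMSO libraries and at 45.9 and 105 CPM with panobinostat, against 30.3 and 13.2 CPM in normoxia. Both treated libraries lay above all 4 others, and the log2 fold change was 4.12 ± 0.715 (SE, edgeR adjusted p = 0.0281; 0.0644 without the block). Syn1 lies at chrX:20860511-20921004 in GRCm38. Kif1a, a kinesin motor that carries synaptic vesicle precursors along axons (chr1:93015464-93101951), went from 10.4 and 18.6 CPM to 90.2 and 160 CPM, a change of 3.11 ± 0.214 with an adjusted p of 0.0215. Mapk8ip1, a scaffold for JNK signalling, went from 7.21 and 4.10 CPM to 56.5 and 79.0 CPM and changed by 3.62 ± 0.393. Ttbk1, a kinase that phosphorylates tau, went from 5.86 and 6.20 CPM to 56.6 and 47.3 CPM and had been at 0.292 and 0.441 CPM in normoxia. In these 4 genes the treated libraries differed from each other by less than they did from the DMSO libraries on the log scale. Gnao1, the neuronal G protein alpha subunit, rose from 7.07 and 14.1 CPM to 61.7 and 80.2 CPM. Dpf1, a subunit of the neuronal chromatin remodeller nBAF, rose by 2.86 ± 0.474, but its 2 treated libraries stood apart at 130 and 38.7 CPM. Rgs16, a regulator that ends G protein signalling, also had treated libraries far apart, at 219 and 46.1 CPM, above 20.4 and 15.6 CPM with DMSO.

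The other 5 named rises included genes that stromal cells express as well. Mcam, an adhesion molecule of vessel wall cells, had a fitted change of 4.61 ± 0.799, made of 6.60 within number 1 and 3.22 within number 2, and of 3.74 without the block. It stood at 0.571 and 16.7 CPM in hypoxic DMSO libraries, 69.4 and 157 CPM with panobinostat, and 11.5 and 66.5 CPM in normoxia, so that its low value in DMSO library 1 set much of the spread and the adjusted p was 0.186 without the block. Akap12, an anchoring protein for protein kinase A, went from 21.4 and 50.6 CPM to 245 and 447 CPM, next to 313 and 123 CPM in normoxia. Sort1, the sorting receptor sortilin, went from 2.14 and 20.4 CPM to 31.6 and 137 CPM. The groups of Sort1 did not overlap, but DMSO library 2 and panobinostat library 1 were close, and the adjusted p was 0.233 without the block. Nt5dc2 and Plat, which encodes tissue plasminogen activator, rose by 2.94 ± 0.359 and 2.91 ± 0.491. Plat went from 9.50 and 9.97 CPM to 61.2 and 83.0 CPM. The 12 changes ranged from 2.64 to 4.61, with adjusted p between 0.0215 and 0.0391 with the block and between 0.0509 and 0.233 without it. In all 12 the panobinostat mean exceeded the normoxic mean. The summed level of the 4 smooth muscle markers moved in the same direction, from 353 and 1336 CPM to 3509 and 3975 CPM, and its part in these rises was not tested.

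Promoter sequence was taken from RefSeq (GRCm38.p6), whose table held 20 of the 24 named genes. The search used the 250 bases before the RefSeq start, on both strands, for the left arm of RE1, the element bound by REST (TTCAGCACC, present in 77 of 27018 promoters, 0.285%), for its right arm (GGACAGC, 1430 promoters, 5.29%) and for a PU.1 site (GAGGAAGT, 660 promoters, 2.44%). No motif contains another. The sequences of Syn1 and Kif1a are shown as those of neuronal genes among the named rises, and that of Hk3 as a fall with close replicates. Each is printed 5′ to 3′ on the gene's strand, without the bases that lie inside the GENCODE gene, and capitals mark a motif match. All 3 genes are on the minus strand, and the windows are chrX:20921005-20921168 for Syn1, chr1:93101952-93102124 for Kif1a and chr13:55021386-55021635 for Hk3.
Syn1: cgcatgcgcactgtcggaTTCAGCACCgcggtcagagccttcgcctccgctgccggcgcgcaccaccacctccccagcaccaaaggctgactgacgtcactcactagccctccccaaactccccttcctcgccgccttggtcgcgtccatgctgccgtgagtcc
Kif1a: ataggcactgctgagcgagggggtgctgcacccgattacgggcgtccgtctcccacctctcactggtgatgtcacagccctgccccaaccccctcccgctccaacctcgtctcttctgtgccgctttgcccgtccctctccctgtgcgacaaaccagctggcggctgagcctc
Hk3: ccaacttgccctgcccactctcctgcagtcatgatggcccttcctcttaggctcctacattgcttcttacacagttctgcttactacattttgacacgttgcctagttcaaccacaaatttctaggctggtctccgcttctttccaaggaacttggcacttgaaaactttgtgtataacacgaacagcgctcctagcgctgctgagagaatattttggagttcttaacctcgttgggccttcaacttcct
The Syn1 window holds the RE1 left arm, and the Kif1a and Hk3 windows hold none of the 3 motifs. Among the 20 named genes with a window, 2 had a match, Syn1 and Rgs16 (an RE1 right arm), and 18 had none. Of the 9 neuronal-list genes that rose, described below, 5 were in the table, and the other 4, Syt1, Tubb3, Chga and Elavl3, had none. The Syn1 and Kif1a windows are GC-rich (67.1% and 65.3%, with 16 and 11 CpG), and the Hk3 window has 47.2% GC and 6 CpG. A match is a description of these letters and not a measured binding site.

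**Figure D2:**
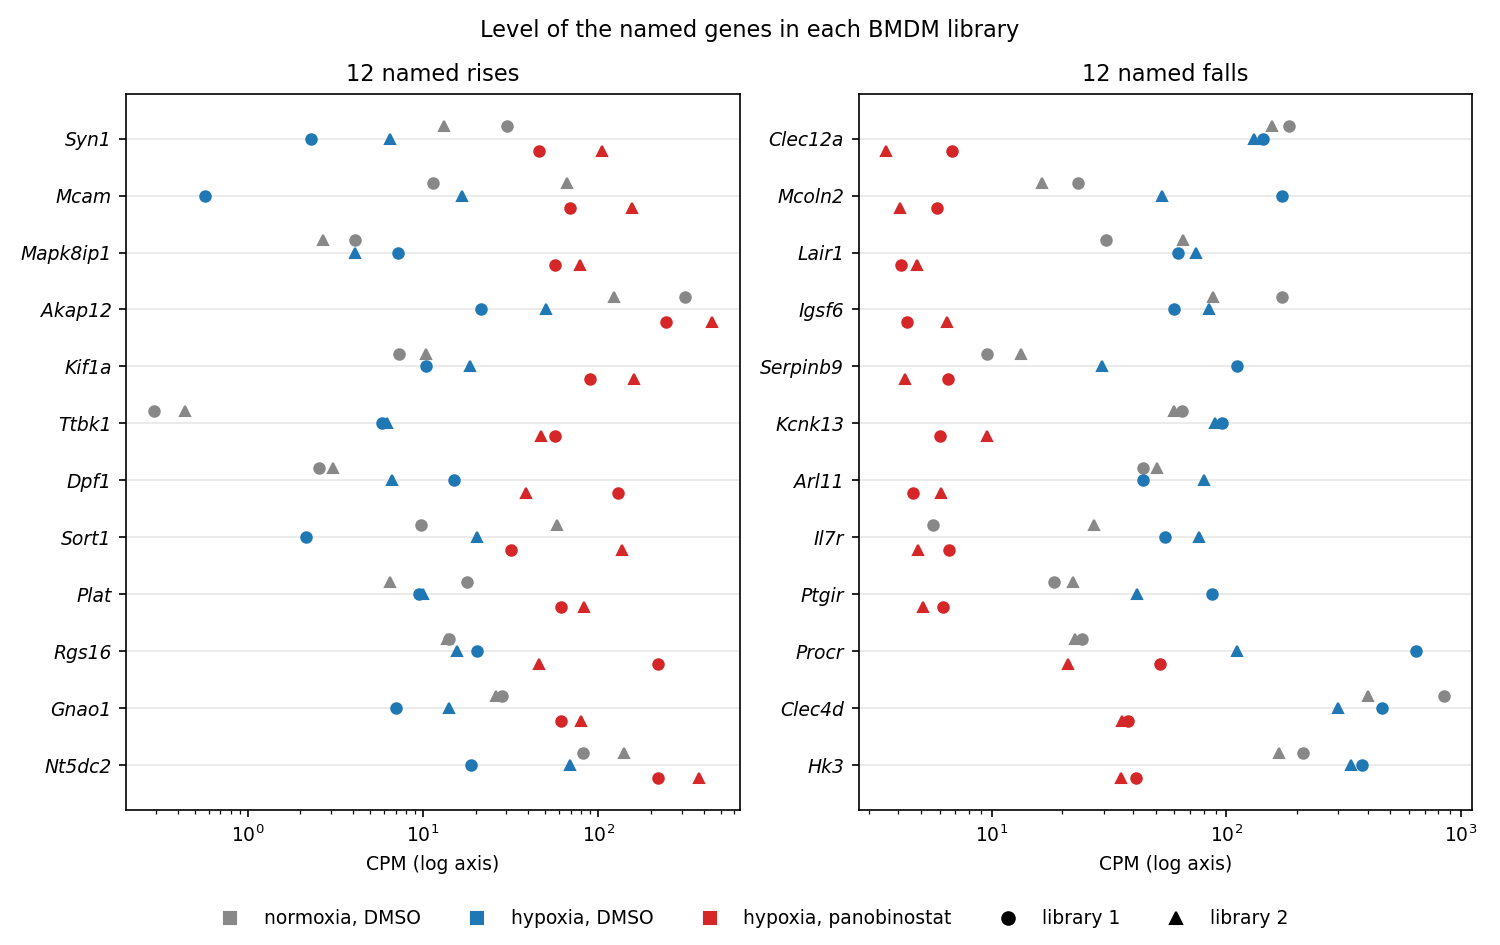
Level in CPM (log axis) of the 12 named rises (left) and 12 named falls (right) in each BMDM library, with normoxia in grey, hypoxia with DMSO in blue and hypoxia with panobinostat in red, circles for library 1 and triangles for library 2. In each of the 24 genes both panobinostat libraries lie on the same side of both hypoxic DMSO libraries.

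The 12 largest falls included receptors and surface proteins of myeloid cells. Clec12a, an inhibitory C-type lectin receptor of myeloid cells (chr6:129342691-129365303), stood at 144 and 131 CPM in hypoxic DMSO libraries and at 6.79 and 3.56 CPM with panobinostat. Its normoxic levels were 185 and 157 CPM, so all 4 untreated libraries were alike and both treated ones low, and the change was -4.77 ± 0.298 (edgeR adjusted p = 0.0215; 0.0509 without the block). Lair1, an inhibitory receptor for collagen, fell from 62.2 and 74.2 CPM to 4.09 and 4.80 CPM. Igsf6, an immunoglobulin-family surface protein, fell from 59.9 and 84.7 CPM to 4.35 and 6.47 CPM. Clec4d, an activating C-type lectin receptor, fell from 459 and 298 CPM to 38.2 and 35.9 CPM. In all these receptors the treated libraries lay within a narrow band below both other groups. Hk3, the hexokinase typical of myeloid cells (chr13:55005985-55021385), fell from 379 and 341 CPM to 41.1 and 35.5 CPM, a change of -3.23 ± 0.23, and lay below the 212 and 168 CPM of normoxia. Kcnk13, a potassium channel of microglia and macrophages, and Arl11, a small GTPase, fell by 3.59 ± 0.285 and 3.50 ± 0.267 on the log2 scale.

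In the other named falls the hypoxic DMSO mean lay above the normoxic mean, and the panobinostat mean lay near or below it. Mcoln2, a cation channel of endosomes and lysosomes, stood at 23.3 and 16.4 CPM in normoxia, 173 and 53.3 CPM in hypoxic DMSO libraries and 5.87 and 4.07 CPM with panobinostat. Il7r, a subunit of the interleukin 7 receptor, stood at 5.63 and 27.4 CPM, 54.9 and 76.1 CPM, and 6.59 and 4.87 CPM in the same order. Procr, the protein C receptor, stood at 24.3 and 22.7 CPM, 645 and 111 CPM, and 52.4 and 21.1 CPM. The hypoxic DMSO libraries of Procr and Mcoln2 differed widely, yet the higher library was number 1 in both treatments. Serpinb9, an inhibitor of granzyme B, and Ptgir, the prostacyclin receptor, had changes of -3.56 ± 0.595 and -3.46 ± 0.381 and also fell. Over the 12 falls the change ranged from -4.77 to -3.13, with adjusted p between 0.0215 and 0.0310 with the block and between 0.0509 and 0.0924 without it. In 9 of the 12 the hypoxic DMSO mean exceeded the normoxic mean, and in 1 of the 12, Procr, the panobinostat mean did.

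Among the 11 HDAC genes, the drug's own target family, 2 rose and 1 fell, where 7.14% of all genes rose and 6.56% fell. Hdac1, a class I enzyme of several nuclear repressor complexes, stood at 47.3 and 52.0 CPM with DMSO and at 108 and 145 CPM with panobinostat, a change of 1.34 ± 0.205 (adjusted p = 0.0252). Hdac11, the class IV member, went from 2.71 and 3.10 CPM to 10.9 and 11.6 CPM and rose by 1.95 ± 0.323. Hdac10, a polyamine deacetylase, went from 14.6 and 17.2 CPM to 7.12 and 7.63 CPM and fell by 1.10 ± 0.248 on the log2 scale. The groups of all 3 genes were separate and their replicates close. Hdac2 changed by 0.81 ± 0.202 and did not pass, with an adjusted p of 0.0528. Hdac3 and Hdac4 had fitted changes of 0.53 each, Hdac6 of 0.56 and Hdac5 of 0.12, and none of these passed. For Hdac7 (66.1 and 127 CPM with DMSO, 97.7 and 72.9 CPM with panobinostat), Hdac8 (13.4 and 8.97, then 12.4 and 8.06 CPM) and Hdac9 (1.86 and 8.09, then 3.82 and 4.72 CPM) the groups overlapped. The median of the 11 was 0.53, but it was 0.56 within number 1 and 0.01 within number 2. Of 19 writers and readers of acetylation, 0 rose and 3 fell, next to the same shares of all genes: Kat6b, an acetyltransferase, from 96.8 and 118 CPM to 39.8 and 36.3 CPM, Brd9, a bromodomain subunit of a BAF complex, from 37.5 and 35.7 CPM to 12.1 and 16.1 CPM, and Crebbp, the acetyltransferase CBP, from 125 and 159 CPM to 70.0 and 64.4 CPM. The list's median was -0.46.

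Genes often used as readouts of HDAC inhibition gave a mixed picture. Clu, the secreted chaperone clusterin, rose from 1.71 and 2.66 CPM to 28.2 and 37.7 CPM, a change of 3.93 ± 0.483, and was the 1 of 6 listed responders to pass. Cdkn1a, the cell cycle inhibitor p21, stood at 849 and 462 CPM with DMSO and at 782 and 332 CPM with panobinostat, a fitted change of -0.27 ± 0.422 (adjusted p = 0.685). Its normoxic levels were 264 and 343 CPM. H1f0, the linker histone of non-dividing cells, went from 254 and 99.5 CPM to 400 and 290 CPM, with a change of 1.06 ± 0.338 and an adjusted p of 0.0872. The groups of H1f0 did not overlap and those of Cdkn1a did. Of 18 linker and core histone genes 1 rose, Hist1h1b, and 1 fell, Hist1h2bc. Over all genes, 7.14% rose and 6.56% fell.

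Among the lists examined, the neuronal genes that REST represses held the largest share of rises. Of these 30 genes 18 had enough counts to be tested, 9 rose and 0 fell, against 7.14% and 6.56% of all genes. A gene that is silent with DMSO enters the test only through its treated libraries, so the 18 are not the whole list. Among the 9 rises, Syt1, Chga, Stmn2 and Nefm had at most 2 counts in a hypoxic DMSO library and could hardly have been called as falls. The 12 untested genes had between 0 and 5 counts in a DMSO library and between 0 and 15 in a panobinostat library, 17 counts summed over DMSO libraries and 74 over panobinostat libraries. Syt1, the calcium sensor of vesicle release, had no count in any untreated library, hypoxic or normoxic. It stood at 1.52 and 4.07 CPM with the drug, at least 10.2-fold higher than the floor of 3 counts per library. Its adjusted p was 0.0375 in the edgeR fit with the block and 0.336 in DESeq2 without it. Chga, chromogranin A, was likewise without a count and reached 0.857 and 2.54 CPM, at least 6.23-fold higher by that floor. Stmn2, a regulator of axonal microtubules, went from 0 and 0.111 CPM to 4.22 and 12.9 CPM. Both treated libraries of these 3 genes lay above every untreated one. Tubb3, the neuronal beta-tubulin, was expressed in all groups and rose from 29.4 and 66.4 CPM to 138 and 136 CPM, a change of 1.58 ± 0.370. Syn1, shown above, belongs to this list too. The median of the 18 fitted changes was 1.63. Syt1 and Chga lie above it at their lower bounds too (3.35 and 2.64), so using the bounds could not move it. Taken within each number, the median was 1.63 for the libraries numbered 1 and 1.58 for those numbered 2.

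**Figure D3:**
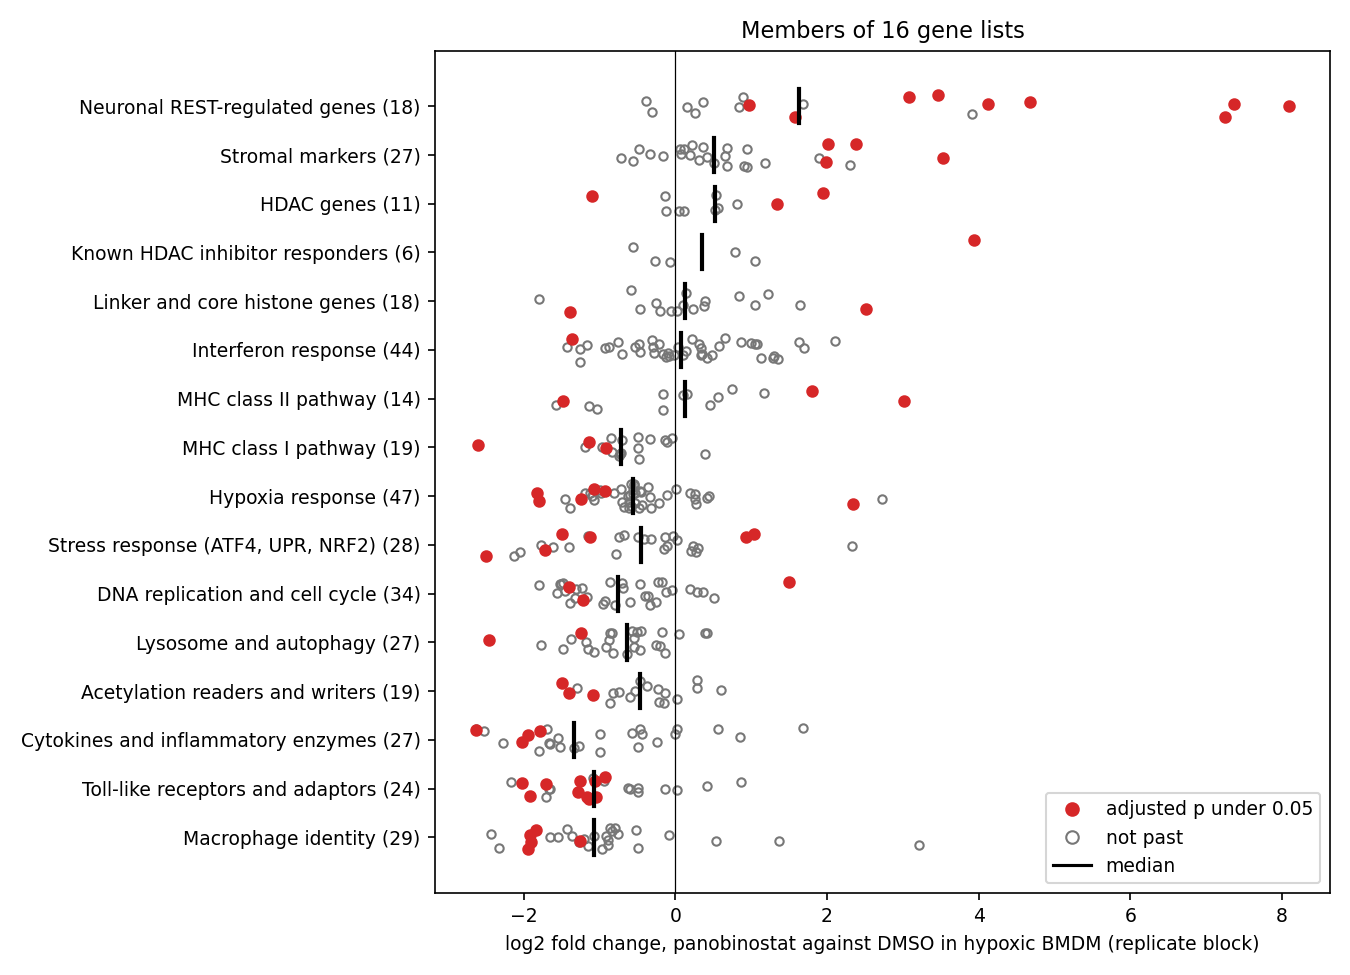
Log2 fold change of panobinostat against DMSO in hypoxic BMDM, from the edgeR fit with the replicate block, for each tested member of 16 gene lists (number of members in brackets), with filled red points for adjusted p under 0.05, open points for members that did not pass, and a black bar at the list's median. The median is highest in the neuronal list, at 1.63, and lowest in the cytokine list, at -1.34. Points beyond 7 are genes with 0 or 1 count in each DMSO library, whose fitted value is no measure of size.

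Most hypoxia-response genes stayed above their normoxic level with panobinostat, and 5 fell. Of 47 such genes, 41 had both hypoxic DMSO libraries above both normoxic ones. In 36 of these 41 the panobinostat mean was lower than the hypoxic DMSO mean, and in 33 both panobinostat libraries still lay above both normoxic ones. Of all genes tested 4453 were higher in both hypoxic DMSO libraries in this way, and the same shares among them were 64.6% and 63.7%. Over the 47, 1 gene rose and 5 fell, next to 7.14% and 6.56% of all genes, and the median change was -0.56. Mif, a macrophage cytokine induced by HIF, stood at 398 and 160 CPM in normoxia and fell from 1180 and 664 CPM in hypoxia to 281 and 218 CPM. Pfkl, the liver-type phosphofructokinase of glycolysis, fell from 924 and 904 CPM to 300.3 and 235 CPM. Kdm3a, a HIF-induced histone demethylase, fell from 245 and 271 CPM to 108 and 110 CPM and remained above its normoxic 57.2 and 36.8 CPM. The treated libraries of Mif and Pfkl thus lay within the normoxic range and those of Kdm3a above it. Slc2a3, the glucose transporter GLUT3, was the 1 gene to rise, from 3.36 and 2.88 CPM to 18.1 and 13.7 CPM, and its normoxic libraries, at 2.27 and 4.22 CPM, lay on both sides of the hypoxic DMSO libraries. Of 9 HIF subunits and oxygen sensors tested, 0 rose and 1 fell: Egln2, a prolyl hydroxylase, by 1.26 on the log2 scale.

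Of 29 transcripts of macrophage identity tested, 0 rose and 5 fell, with a median change of -1.07, and 21 of the 29 were lower within both numbers. Of all genes 6.56% fell, and 38.5% were lower within both numbers. Spi1, which encodes the myeloid master regulator PU.1, fell from 386 and 272 CPM to 71.2 and 110 CPM, a change of -1.84 ± 0.366 (adjusted p = 0.0337). Csf2ra, the GM-CSF receptor alpha chain, fell from 125 and 351 CPM to 51.4 and 61.6 CPM. Ptprc, the pan-leukocyte phosphatase CD45, fell from 174 and 281 CPM to 39.4 and 84.8 CPM. For each of these 3 genes the 2 groups were separate. Cd68, a lysosomal glycoprotein of macrophages, fell from 284 and 522 CPM to 126 and 206 CPM. Csf1r, the M-CSF receptor on which BMDM depend, went from 1270.1 and 1963 CPM to 117 and 655 CPM, with a change of -2.33 and an adjusted p of 0.0707. Beside these values, the summed level of the 15 fibroblast and stroma markers was 6089 and 23866 CPM with DMSO and 13195 and 19816 CPM with panobinostat, so that it was higher in number 1 and lower in number 2, while the 8 macrophage markers summed to 4069 and 11040 CPM with DMSO and 1024 and 4475 CPM with the drug. The part of a shift between cell types in these falls was not tested. With the summed stromal level as a covariate, in place of the block, 0 genes passed. The fit with neither also called 0, so this count does not show what the covariate changed. With the covariate the medians of the genes that had risen and fallen were 1.91 and -1.35.

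**Figure D4:**
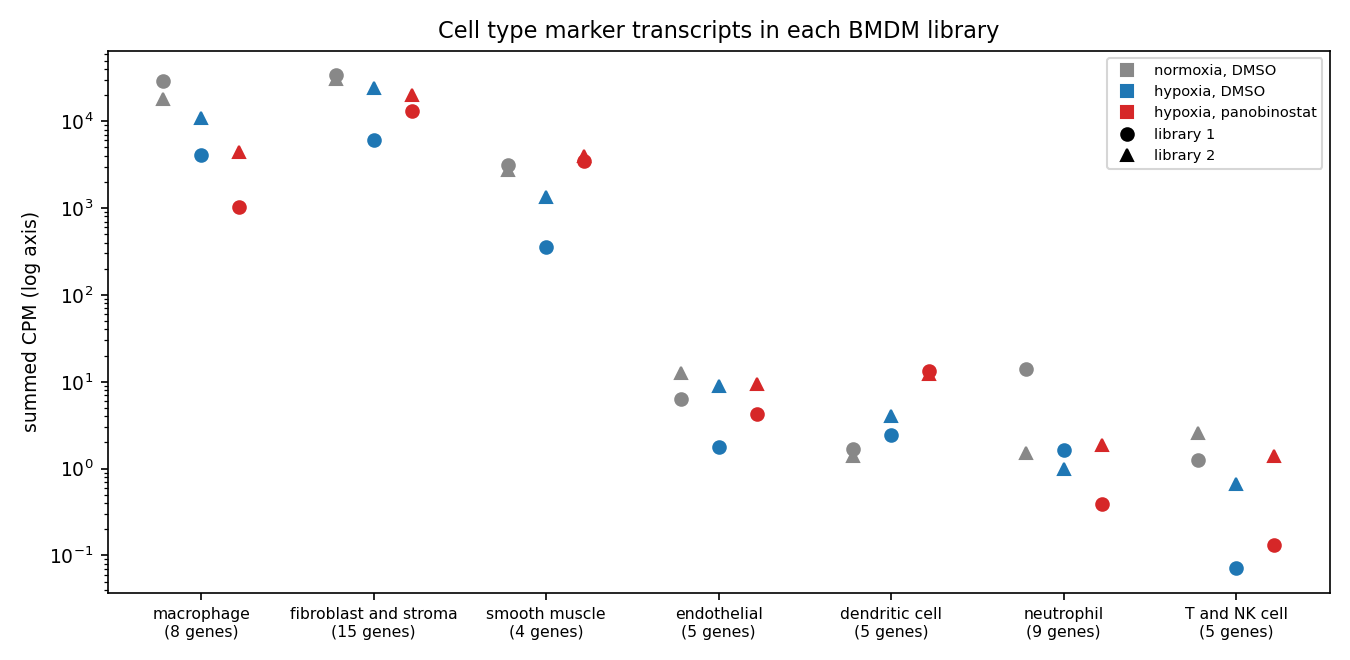
Summed CPM (log axis) of marker lists for 7 cell types in each BMDM library, with the number of genes per list in brackets, colours for the 3 groups, circles for library 1 and triangles for library 2. Macrophage markers were lower in both panobinostat libraries than in the DMSO library of the same number, smooth muscle markers were higher, and fibroblast markers moved up in number 1 and down in number 2.

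Among the lists examined, the receptors and adaptors that sense microbial products held the most falls. Of 24 genes of Toll-like receptor signalling, 0 rose and 10 fell, against 6.56% of all genes that fell, and the median change was -1.07. Cd14, the co-receptor for lipopolysaccharide, went from 1051 and 375 CPM to 157 and 159 CPM, and Ly96, which encodes MD-2, from 13.1 and 4.65 CPM to 3.30 and 1.09 CPM. Irak1, a kinase downstream of MyD88, fell from 175 and 134 CPM to 57.5 and 37.7 CPM, and Nfkb1, the NF-κB subunit p105, from 207 and 135 CPM to 92.0 and 50.8 CPM. For each of these 4 genes the panobinostat value was lower within both numbers, and the levels of Ly96 in DMSO library 2 and panobinostat library 1 were close. Of 27 cytokines and inflammatory enzymes, 0 rose and 4 fell, next to 7.14% and 6.56% of all genes: Osm (oncostatin M) by 2.63, Il15 by 2.02, Nlrp3 by 1.94 and Gsdmd, the pore-forming gasdermin D, by 1.79 on the log2 scale. Gsdmd went from 78.3 and 60.7 CPM to 19.1 and 21.2 CPM. The median of this list was -1.34, but it was -1.78 within number 1 and -0.20 within number 2. Among 21 chemokines 1 rose and 2 fell, next to the same shares of all genes. Cxcl2, a neutrophil attractant, stood at 2760 and 54.4 CPM with DMSO and 382 and 14.2 CPM with panobinostat, so that its libraries overlapped between treatments and its fall rests on the pairing by number. Cxcl16 fell from 167 and 155 CPM to 33.2 and 56.2 CPM, and Cx3cl1, a membrane-bound chemokine, rose from 8.57 and 18.3 CPM to 103 and 64.4 CPM.

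Antigen presentation genes did not move together. Counts of calls in the lists below stand next to 7.14% of all genes that rose and 6.56% that fell. Psmb10, an immunoproteasome subunit, fell from 46.6 and 27.1 CPM to 7.25 and 4.72 CPM, a change of -2.60 ± 0.211, and 0 of the 19 class I pathway genes rose while 3 fell. Erap1, a peptidase that trims class I ligands, and H2-M3 were the others, at -1.13 and -0.91. In the class II pathway 2 of 14 rose, H2-Ob and H2-DMa, which encode subunits of the regulators of peptide loading, and 1 fell, the co-stimulator Cd86, from 63.8 and 38.3 CPM to 23.7 and 13.2 CPM. The 44 interferon-response genes had a median change of 0.07, with 0 that rose and 1 that fell, Isg20, by 1.37 on the log2 scale. C3ar1, the receptor for complement C3a, was the 1 of 13 complement genes to pass and fell from 212 and 414 CPM to 49.8 and 86.0 CPM.

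Lipid, stress and survival genes contributed single large changes. The counts of calls in this paragraph stand next to 7.14% of all genes that rose and 6.56% that fell. Lgals3, galectin 3, fell from 4118 and 2968 CPM to 907 and 626 CPM, and Axl, a receptor for apoptotic cells, rose from 77.8 and 235 CPM to 372 and 446 CPM. Among genes of cholesterol synthesis and its control, the enzymes Hsd17b7 and Dhcr7 rose by 1.98 and 1.56. Insig1, which holds back sterol-driven transcription, fell from 81.0 and 56.1 CPM to 15.1 and 11.8 CPM. Atf5, a transcription factor of the integrated stress response, fell from 619 and 499 CPM to 143 and 66.0 CPM. It was 1 of 4 stress genes that fell, with Slc7a11, Dnajb9 and Xbp1, while Hspa1a and Hspa1b rose by 1.04 and 0.93, 2 near-identical copies whose reads the counting may divide arbitrarily. Pmaip1, the pro-apoptotic protein NOXA, rose from 7.14 and 8.53 CPM to 38.9 and 51.2 CPM, a change of 2.51 ± 0.311, the 1 rise among 17 genes of the BCL2 family, of which Bbc3 and Bak1 fell. Cdkn2a, the inhibitor p16 and ARF locus, rose from 45.1 and 48.4 CPM to 108 and 104 CPM, and Cdkn1b, p27, fell from 133 and 132 CPM to 75.1 and 53.3 CPM. Among 34 replication and cell cycle genes 1 rose, Ccne1 (cyclin E1), from 3.999 and 10.1 CPM to 15.03 and 21.2 CPM. The median of these genes was -0.75, but it was -0.10 within number 1 and -0.97 within number 2. In the same list 2 fell, Top2a (topoisomerase II alpha), from 5.998 and 79.0 CPM to 3.30 and 22.9 CPM, and Pole (a catalytic subunit of DNA polymerase epsilon), from 1.93 and 11.3 CPM to 0.725 and 5.16 CPM. The treatments of both overlapped, and their falls rest on the pairing by number. Of 27 lysosome and autophagy genes 2 fell, next to 6.56% of all genes: Ctsk (cathepsin K) by 2.45 and the cholesterol exporter Npc1 by 1.24 on the log2 scale. Of 21 immediate early genes 2 fell, next to the same share of all genes: Klf6 by 0.98 and Klf2 by 0.84 on the log2 scale.

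Stromal markers showed 4 rises and 0 falls among 27 tested, next to 7.14% and 6.56% of all genes. Thy1, a surface protein of fibroblasts and neurons, rose from 0.785 and 2.33 CPM to 8.57 and 28.7 CPM, and Tagln, a smooth muscle actin-binding protein, from 176 and 439 CPM to 1590 and 1431 CPM. Pdgfra and Ccn1 rose by 1.98 and 2.01. The abundant collagens did not follow these genes: Col1a1 stood at 1702 and 8976 CPM with DMSO and 5654 and 8757 CPM with panobinostat and did not pass (adjusted p = 0.503). The list's median was 0.52, made of 1.40 within number 1 and -0.04 within number 2. Neutrophil, T and NK cell, B cell and erythroid markers each summed to less than 2 CPM in every hypoxic library. The dendritic cell list reached 13.3 and 12.3 CPM with panobinostat through 1 gene, Zbtb46, while Xcr1, Cd209a and Siglech stayed at 0 or 1 count. Of the megakaryocyte list, Pf4 stood at 418 and 59.6 CPM with DMSO and at 40.1 and 36.2 CPM with panobinostat and did not pass (adjusted p = 0.342).

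The question of how far this response is shared with microglial cells was addressed by testing the difference between the drug's effect in BMDM and in BV2. Of 15955 genes tested over 12 libraries, 4 (0.0251%) differed, Cd36, Dhrs3, Lmtk3 and Slc39a8, of which the latter 2 are low in 1 cell type and were singled out after their values were seen. Cd36, a scavenger receptor for oxidised lipids, went from 173 and 150 CPM to 48.0 and 75.9 CPM in BMDM and from 2.88 and 2.76 CPM to 38.4 and 32.7 CPM in BV2. The effects had opposite signs, -1.38 in BMDM and 3.65 in BV2, and differed by -5.04 ± 0.483 (edgeR adjusted p = 0.00841). Dhrs3, a retinaldehyde reductase, went from 196 and 238 CPM to 41.5 and 43.5 CPM in BMDM and from 99.7 and 82.6 CPM to 107 and 112 CPM in BV2, a difference of -2.61 ± 0.310 with an adjusted p of 0.0288. Lmtk3, a membrane kinase, went from 0.524 and 0.338 CPM to 38.6 and 63.3 CPM in BMDM and from 1.59 and 2.90 CPM to 1.09 and 1.66 CPM in BV2. Slc39a8, the zinc importer ZIP8, went from 58.0 and 47.3 CPM to 14.3 and 9.50 CPM in BMDM, while in BV2 it stood at 0.0757 and 0 CPM with DMSO and at 1.17 and 1.18 CPM with the drug. With the replicate number as a block within each cell type 166 genes (1.04%) differed, the same 4 among them, and without BMDM hypoxic DMSO library 2 in the unblocked test 82 did, while without other single hypoxic libraries between 0 and 2 did.

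For the named genes the effects in the 2 cell types stood side by side as follows. Changes and calls in BV2 are from the edgeR fit without the block, unlike the calls in BMDM. All 12 falls had a negative change in BV2, and 3 passed there: Igsf6 at -4.15, Lair1 at -2.36 and Arl11 at -2.16. Of the 12 rises 8 had a positive change in BV2 and 1 passed, Plat at 2.66 (adjusted p = 0.0482). Over all genes, 322 (2.02%) passed in BV2. With the block, Kcnk13, Il7r, Clec4d and Hk3 among the falls also passed in BV2 (edgeR adjusted p = 0.0260, 0.0368, 0.0100 and 0.00687). So did Kif1a among the rises (0.0430). For none of the 24 did the difference between cell types pass without the block, with adjusted p between 0.0812 and 0.979. With it, Mapk8ip1 (0.0237), Kif1a (0.0242), Mcoln2 (0.0211) and Ptgir (0.0408) did. Of 1063 risen genes tested in both cell types, 720 (67.7%) had the same sign in BV2, of 978 fallen genes 840 (85.9%), and of all genes 63.8%. Past the threshold in BV2 without the block were 70 of the risen genes in the same direction and 0 in the opposite one. Of the fallen genes 80 and 3 were.

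**Figure D5:**
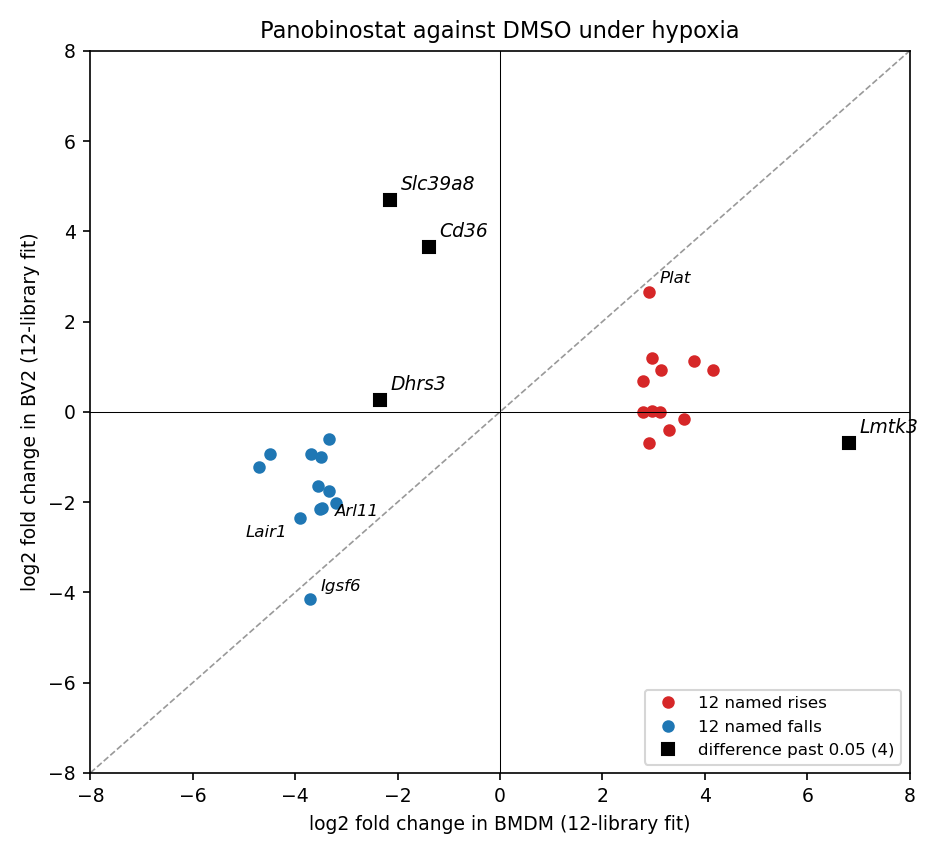
Log2 fold change of panobinostat against DMSO under hypoxia in BMDM (x axis) and BV2 (y axis), both from the 12-library edgeR fit without the block, for the 12 named rises (red), the 12 named falls (blue) and the 4 genes whose effect differed between the cell types (black squares); the dashed line marks equal change. All 12 falls lie below 0 in BV2, and Cd36, at -1.38 and 3.65, lies in the opposite quadrant. The position of Slc39a8 in BV2 rests on 0 or 1 count with DMSO and is no measure of size.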

How the data were processed

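The authors deposited raw read counts per Ensembl gene for 12 libraries, 6 of BMDM and 6 of BV2, in 1 table of 55487 IDs, of which 55141 were matched to symbols through GENCODE M21. The submitters' processing notes name Trimmomatic 0.36, STAR 2.6, HTSeq 0.9.1 and the mouse build mm10, and the strand setting of the counting is not given in the sources used here, so overlapping and antisense genes may share reads. The library kit was strand-specific, per the labels' protocols.

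Counts were analysed in R 4.3.3 with edgeR 4.0.16 (TMM scaling, filterByExpr at its defaults, quasi-likelihood F test, Benjamini-Hochberg adjustment over all genes tested, threshold 0.05), with a mean per group over the 6 BMDM libraries. The difference from BV2 was the interaction term over all 12 libraries, with CPM scaled over those 12. The edgeR fit of the BMDM comparison was tested, with and without the block, on simulated counts that held no effect of the replicate number. DESeq2 1.42.0, other scalings, filters, library sets, a stromal covariate and leaving out single libraries were alternatives.

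Deviations from group means of same-numbered libraries correlated at 0.405, 0.320 and 0.664 over the 3 pairs of BMDM groups (10774 genes with a mean log2 CPM above 2). All exceeded 0.1, so the numbers were taken to pair the libraries. The pairing comes from these data, since the labels give the number alone. Counts of replicate libraries differed by more than sampling noise in every group.

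Named genes were the 12 largest rises and 12 largest falls by the fold change without the block, provided that log2 CPM averaged 4 or more over the hypoxic libraries, that treatments did not overlap and that the adjusted p was under 0.05. Since no gene passed without the block, all places were filled from genes that passed with it. From the lists described, up to 4 members past the threshold with the largest changes could be named, and the HDAC genes, Cdkn1a, H1f0 and cell type markers whatever the test. A list member that the rule would name is not reported here, and no counts are given for its list. The comparison, the gene lists and the rules were chosen with earlier results of these data known. The promoter table held 72.6% of the genes tested, too few to compare promoter composition between risen and fallen genes, which was left out. Libraries of co-cultures and of other tables were not used here.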

Additional observations from a re-analysis of the deposited data

Results flagged for a closer look

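The effect of panobinostat differed between hypoxic BMDM and hypoxic BV2 by a test of the difference itself for 4 genes (edgeR quasi-likelihood interaction over 12 libraries, adjusted p under 0.05). For Cd36 the effect in BMDM minus that in BV2 was -5.04 on the log2 scale (adjusted p = 0.00841), with both BMDM libraries lower and both BV2 libraries higher with the drug. For Dhrs3 the difference was -2.61 (adjusted p = 0.0288), a fall in BMDM beside a change of 0.26 in BV2. For Lmtk3 it was 7.51 (adjusted p = 0.00841), where the BMDM DMSO libraries held 0.524 and 0.338 CPM. For Slc39a8 the fitted value was -6.83 (adjusted p = 0.0288), which rests on 0 or 1 count in the BV2 DMSO libraries and is no measure of size.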

How the results depend on the processing

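Without the replicate block, edgeR called 0 genes for panobinostat against DMSO in hypoxic BMDM. With the replicate block it called 2044, DESeq2 called 2024 without and 2960 with the block, DESeq2 size factors in edgeR 66, no filter beyond 1 count 594, and a mean CPM of at least 5 gave 53. The 4 hypoxic libraries alone gave 0 without and 3337 with the block, and all 12 libraries 2077 without and 4018 with it, the last an alternative added after seeing the data. With the stromal covariate in place of the block the count was 0, the same as with neither. Leaving out single libraries gave 0 without the block in each case, and 0 to 3796 with it (3796 and 3733 without normoxic library 1 or 2); leaving out the normoxic libraries in the blocked fit was added after seeing the data. Of the 1065 genes that rose, 100% kept a positive change under every alternative that tested them, and of the 979 that fell at least 99.4% kept a negative one. These genes were called on the same libraries, and the 24 named genes were also chosen for treatments that did not overlap. Their direction was thus largely fixed by the choice, and keeping it is no independent support. The 24 named genes kept their direction in all alternatives. With the 4 hypoxic libraries alone, 0 of them passed without the block and 24 with the block, which had also called them. With the stromal covariate in place of the block, 0 passed. Among other genes whose change the text gives, Cdkn1a turned positive with the stromal covariate (0.28), with the block without DMSO library 1 (0.018) or without panobinostat library 2 (0.17), and ranged from -0.98 to 0.30 without the block and 1 library. Cxcl2, which fell with the block, was at 1.22 with the stromal covariate, and without the block it ranged from -6.62 to 1.90 with 1 library left out. Top2a and Pole, which fell with the block, ranged without it from -3.68 to 1.12 and from -3.15 to 0.60 with 1 library left out. The signs of Hdac7, Hdac8, Hdac9 and Col1a1 also differed between alternatives. The difference from BV2, 4 genes, was 219 with DESeq2, 675 with DESeq2 and the block, 166 with the replicate block, 35 without a filter, and 0 to 82 with 1 hypoxic library left out. The cause of these shifts was not tested. With 2 libraries per group, the spread is estimated from 3 residual degrees of freedom, or 2 with the block, and at the lowest total, 9634700 counts, a level under 0.332 CPM rests on fewer than 3 counts.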

Other observations

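Some values outside the rule for named genes were singled out after they were seen. Arg1, the arginase of alternatively activated macrophages, stood at 192 and 218 CPM in the hypoxic DMSO libraries and at 3.23 and 2.32 CPM with panobinostat, but at 1761 and 2.08 CPM in the normoxic libraries, and did not pass (edgeR adjusted p = 0.118 with the replicate block). None of the 11 tested genes of arginine metabolism and alternative activation passed. The 3 metallothioneins, which bind zinc, were higher with panobinostat within both numbers, with a median fitted change of 0.93 and 0 of 3 past the threshold. The 10 tested mitochondrially encoded transcripts had a median change of 0.07, and 0 passed. Over all genes tested, 7.14% rose and 6.56% fell, and 38.2% were higher with panobinostat within both numbers. Trem2, a lipid receptor of macrophages, stood at 47.3 and 365 CPM with DMSO and at 16.7 and 44.0 CPM with panobinostat (adjusted p = 0.0513). Il1b and Il6 differed widely between the library numbers: Il1b stood at 219 and 1.66 CPM with DMSO and at 19.3 and 4.21 CPM with panobinostat, and Il6 at 80.9 and 0.111 CPM with DMSO and at 16.9 and 0.291 CPM with panobinostat.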
